A study of Mus musculus with 16 samples.

Results

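The immunoglobulin constant genes and the J chain gene were followed across subcapsular sinus macrophages (SSMs) and medullary sinus macrophages (MSMs) from mouse lymph nodes. The members were chosen by symbol: the heavy chain genes Ighm, Ighd, Ighg3, Ighg1, Ighg2b, Ighg2c and Igha, the light chain genes Igkc and Iglc1, and Jchain, which makes 10 of the 55421 gene rows of the count table. All 10 were among the 21085 genes that passed the filter on low counts, but only 6 of them (Ighm, Ighd, Ighg1, Ighg2c, Igkc and Jchain) had a mean above 100 normalized counts (counts scaled by TMM factors to an average lane). Macrophages came from male C57BL/6 mice that all carried a MOC2 tumor, a squamous cell carcinoma line implanted in the skin of the flank 2 weeks earlier. The 4 groups were SSMs and MSMs from tumor-draining lymph nodes (tdLN) and from non-draining lymph nodes of the opposite flank (ndLN) of the same animals, so no group came from a tumor-free mouse. Each group held 2 libraries, pool 1 and pool 2, each made from 2 mice and from 2 tdLN or 6 ndLN. The ndLN were inguinal, axillary and brachial nodes, while the tumor was placed near the inguinal node. Node site and tumor drainage therefore cannot be told apart between tdLN and ndLN. Live CD45+ CD11b+ CD169+ cells without CD3, B220 or Ly6G were sorted, SSMs as CD11c- cells with low side scatter and MSMs as CD11c+ cells with high side scatter.

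An antibody is built from heavy and light chains, and the constant gene joined to the heavy chain sets its class: Ighm for IgM, Ighd for IgD, Igha for IgA and the Ighg genes for the IgG subclasses. B cells start with IgM and IgD and can then switch to another class by deleting the DNA in between, while each B cell clone keeps its light chain, kappa (Igkc) or lambda (Iglc genes). The J chain links IgM and IgA into polymers and is made by cells that secrete antibody, whatever their class. The surface molecule B220 marks B cells and is low on many plasma cells, the cells that secrete antibody. Macrophages bind antibody through Fc receptors. C57BL/6 mice carry Ighg2c in the place that Ighg2a takes in other strains.

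On the mouse build GRCm38/mm10 the heavy chain constant genes lie in a row on the minus strand of chromosome 12, from Ighm (chr12:113418558-113422730) through Ighd (chr12:113406604-113416324), Ighg3 (chr12:113356224-113361232), Ighg1 (chr12:113325240-113330523), Ighg2b (chr12:113302965-113307933) and Ighg2c (chr12:113285325-113288932) to Igha (chr12:113254830-113260236). Igkc lies on the plus strand of chromosome 6 (chr6:70726435-70726966), Iglc1 on the minus strand of chromosome 16 (chr16:19061618-19062071) and Jchain on the minus strand of chromosome 5 (chr5:88519809-88527891). The 4 IgG genes are close copies of each other, with coding identity between 75.3% (Ighg1 and Ighg3) and 85.9% (Ighg2b and Ighg2c), so the bases that tell them apart matter for every IgG value below. The first 120 coding bases of each gene, in the exon of its first constant domain, are shown for that reason, with capitals at the 39 positions where the 4 genes are not all alike (GENCODE M21 transcripts, 5′ to 3′ on the minus strand, Ighg1 at chr12:113330404-113330523, Ighg2b at chr12:113307814-113307933, Ighg2c at chr12:113288813-113288932 and Ighg3 at chr12:113361113-113361232).
Ighg1: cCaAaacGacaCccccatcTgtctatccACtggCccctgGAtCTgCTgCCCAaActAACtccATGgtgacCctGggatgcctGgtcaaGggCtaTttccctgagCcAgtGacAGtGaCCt
Ighg2b: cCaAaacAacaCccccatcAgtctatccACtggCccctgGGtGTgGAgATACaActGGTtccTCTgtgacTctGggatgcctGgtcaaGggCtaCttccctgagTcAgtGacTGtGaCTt
Ighg2c: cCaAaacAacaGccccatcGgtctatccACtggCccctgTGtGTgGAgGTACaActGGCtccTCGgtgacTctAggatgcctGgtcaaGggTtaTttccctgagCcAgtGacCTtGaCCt
Ighg3: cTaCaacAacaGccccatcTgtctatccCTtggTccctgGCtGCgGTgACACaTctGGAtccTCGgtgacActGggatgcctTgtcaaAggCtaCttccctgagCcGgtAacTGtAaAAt

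Of all windows of 50 bases in a gene's transcripts, 0.393% were also found in another gene for Ighg1, 1.58% for Ighg3, 4.15% for Ighg2b and 5.49% for Ighg2c. Reads could therefore be split between Ighg2b and Ighg2c at those places, while none of the windows of Ighm, Ighd, Igha, Igkc or Iglc1 was shared. The lambda genes matter for 1 library below, and the first 90 comparable coding bases of Iglc1, Iglc2 and Iglc3 are shown with capitals at the 21 positions where they are not all alike (minus strand, Iglc1 at chr16:19061982-19062071, Iglc2 at chr16:19198763-19198852 and Iglc3 at chr16:19065592-19065681).
Iglc1: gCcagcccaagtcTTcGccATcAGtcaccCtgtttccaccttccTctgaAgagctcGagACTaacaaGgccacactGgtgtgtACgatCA
Iglc2: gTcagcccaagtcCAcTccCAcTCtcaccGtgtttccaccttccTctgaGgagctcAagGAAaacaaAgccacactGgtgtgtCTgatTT
Iglc3: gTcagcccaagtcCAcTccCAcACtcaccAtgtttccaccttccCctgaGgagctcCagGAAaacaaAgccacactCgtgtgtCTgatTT

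Iglc2 and Iglc3 had 96.5% coding identity, and Iglc1 and Iglc2 73.2%. Windows shared with another gene made up 7.65% of Iglc2 and 22.3% of Iglc3.

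Libraries held between 42972328 and 48130352 counts, so that 3 counts, taken here as the floor, equal between 0.0623 and 0.0698 CPM (counts scaled to the total of the library). All 10 markers of sinus macrophages were above that floor in every group, although Cd163 reached it in 1 SSM library from ndLN. Their summed level was between 4586 and 21700 CPM, mostly Lyz2 (3607 to 18660 CPM). Siglec1, the gene of CD169, was between 0.717 and 1.57 CPM in ndLN MSMs. The 12 B cell markers summed to between 157 and 216 CPM in SSMs from ndLN, 122 and 132 CPM in SSMs from tdLN, 70.8 and 120 CPM in ndLN MSMs and 54.1 and 70.1 CPM in tdLN MSMs. The 8 T cell markers summed to between 446 and 1504 CPM and the 7 mast cell and basophil markers to between 176 and 1677 CPM over the 8 libraries, both highest in SSMs from ndLN. In MSMs the T cell sum was mostly Cd8a (342 to 546 CPM), with Cd3d, Cd3e and Cd3g each at 20.9 CPM or less. The mast cell and basophil sum in MSMs was mostly Kit (254 to 593 CPM). In RNA from a whole sort, fewer cells that carry a transcript and less of it per cell cannot be told apart, and counts per gene do not separate membrane from secreted forms or from unrearranged transcripts.

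The members together took between 0.0251% and 0.322% of all counts, and the mix differed between libraries of the same group. Ighm was present at a similar level in 7 of the 8 libraries. Above this level, Ighg1 and Igkc were high in the 4 tdLN libraries, Ighg2c and Igkc were high in SSM pool 2 from ndLN, and Ighm with the lambda gene Iglc2 was high in MSM pool 1 from ndLN. SSM pool 1 from ndLN had little besides Ighm, and its members summed to 251 CPM, against 3217 CPM in SSM pool 2 from tdLN.

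**Figure D1:**
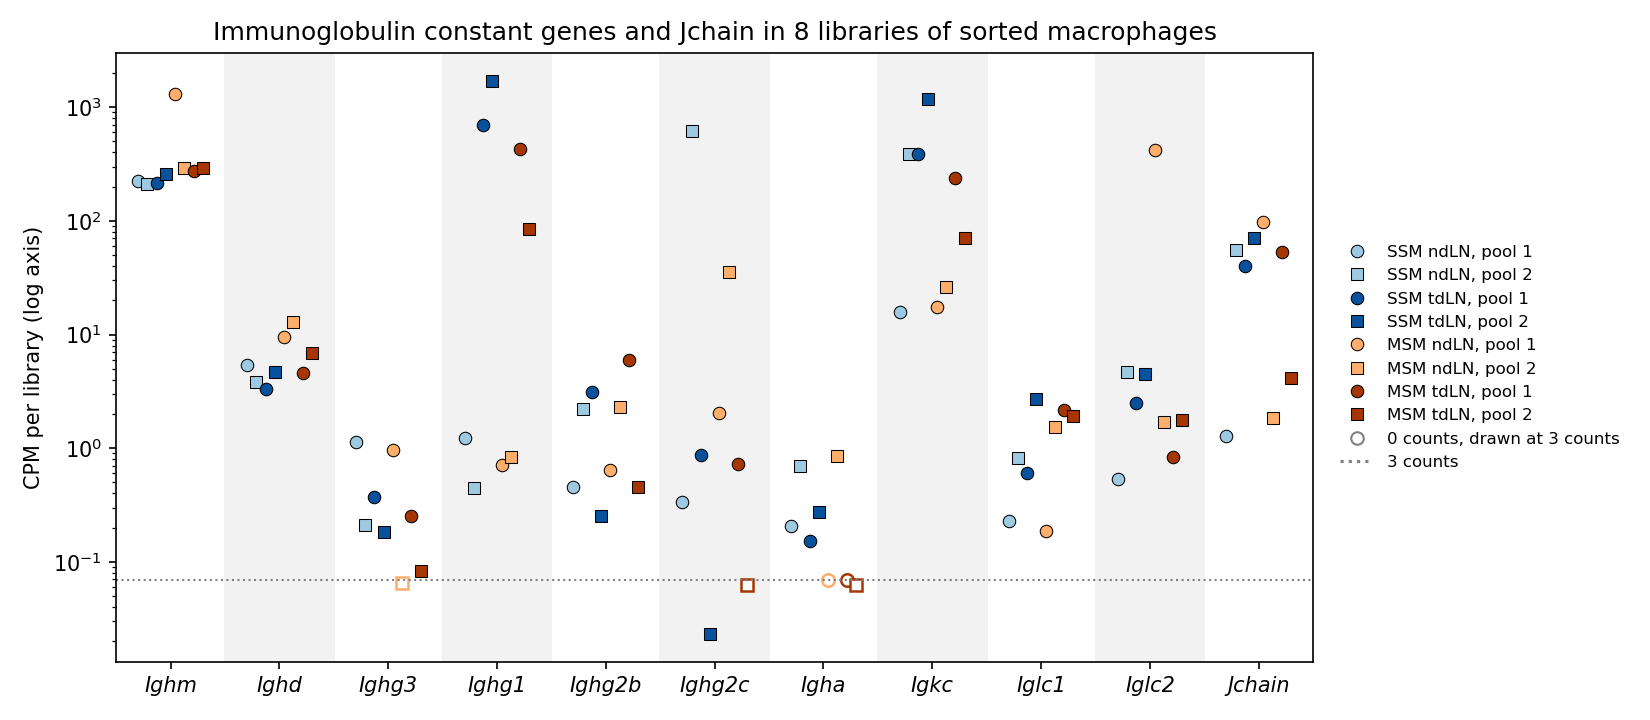
CPM of the 10 members and Iglc2 (log axis) in the 8 libraries, with color for the group, circles for pool 1, squares for pool 2, and open symbols, drawn at 3 counts, for libraries with 0 counts. Ighg1 sits at 84.9 CPM or more in the 4 tdLN libraries and at 1.23 CPM or less in the 4 ndLN libraries, Ighg2c stands out in SSM pool 2 from ndLN, and Ighm and Iglc2 stand out in MSM pool 1 from ndLN.

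Ighm, the heavy chain of IgM, was at 210 CPM or more in every library and stood apart in 1. In SSMs it was 225 and 210 CPM in ndLN and 217 and 260 CPM in tdLN (pools 1 and 2). In MSMs it was 1317 and 290 CPM in ndLN and 274 and 294 CPM in tdLN. Every MSM library was above every SSM library, a separation in this direction that 10% of the tested genes shared, and without MSM pool 1 from ndLN the other 7 libraries lay within a factor of 1.41. The fitted difference between SSMs and MSMs in ndLN was -2.06 on the log2 scale (SE 0.565), and it did not pass the test used here, an adjusted p under 0.01 by edgeR's quasi-likelihood test (adjusted p = 0.0356). That value rested on MSM pool 1, without which it was -0.62 (adjusted p = 0.0665), while without MSM pool 2 it was -2.97 and passed (adjusted p = 0.000754). In tdLN the difference was -0.30 (SE 0.533, adjusted p = 0.78).

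Ighd, which naive B cells express beside Ighm from the same rearranged gene, was far lower than Ighm throughout. It was 5.37 and 3.84 CPM in SSMs from ndLN, 3.29 and 4.69 CPM in SSMs from tdLN, 9.51 and 13 CPM in ndLN MSMs and 4.56 and 6.88 CPM in tdLN MSMs. Per kilobase of exon, Ighm was between 111 and 698 CPM and Ighd between 1.73 and 6.83 CPM. Both MSM libraries from ndLN were above the 6 others. SSMs and MSMs from ndLN differed by -1.54 on the log2 scale (SE 0.317), just outside the threshold (adjusted p = 0.0106), and the difference in tdLN was -0.58 (SE 0.352, adjusted p = 0.342). In the fit without pool, the ndLN difference of -1.57 passed (adjusted p = 0.00629). The log2 ratio of Ighd to Ighm counts was -5.75 ± 0.269 in SSMs and -5.73 ± 1.1 in MSMs (SD, n = 4 libraries each), a difference of -0.0163 (exact permutation test, two-sided p = 1.0, adjusted p = 1.0 over the 5 values so tested). The ratio was lowest in MSM pool 1 from ndLN, at -7.11, and highest in MSM pool 2 from ndLN, at -4.48.

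Ighg1, the heavy chain of IgG1, separated the nodes. In SSMs it was 1.23 and 0.442 CPM in ndLN against 699 and 1709 CPM in tdLN, and in MSMs it was 0.717 and 0.839 CPM in ndLN against 432 and 84.9 CPM in tdLN. The lowest tdLN library lay far above the highest ndLN library, and Ighg1 was the only member whose 4 tdLN libraries were all above the 4 ndLN libraries, as 2.6% of the tested genes were. In counts, the ndLN libraries held between 19 and 59 counts of Ighg1 and the tdLN libraries between 4086 and 74019.

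Ighg1 was also the only member called in any comparison of the nodes. In SSMs it was higher in tdLN by 10.82 on the log2 scale (SE 1.13, edgeR's quasi-likelihood test, adjusted p = 0.00254), 1 of 10 members, where 1.99% of all tested genes were called higher, 1.05% lower and 3.04% either way (419 and 221 genes, and 279 and 383 without TMM factors, where Ighg1 was called too). Over both subsets it was higher by 9.77 (SE 0.845, adjusted p = 0.0036), where 0.0996% of genes were called higher and 0.223% either way. In MSMs the fitted difference of 8.18 (SE 1.11) missed the threshold (adjusted p = 0.0346), in a comparison in which 5 of the 21085 genes, or 0.0237%, were called either way. The node difference did not differ detectably between subsets (interaction 2.64 on the log2 scale, SE 2.27, adjusted p = 0.762, and 0.0379% of genes called). In tdLN, Ighg1 was higher in SSMs than in MSMs by 2.45 (SE 0.765), which did not pass (adjusted p = 0.0734).

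The call in SSMs was lost without SSM pool 1 or 2 from ndLN and, barely, without either MSM pool from ndLN. The difference stayed between 9.25 and 12.47 in all 8 fits with 1 library left out. Each of these 8 fits also called fewer of the tested genes in this comparison than the main fit. A lost call therefore need not be particular to Ighg1. The call over both subsets was lost without SSM pool 1 or 2 or MSM pool 1 from ndLN (adjusted p = 0.0384, 0.0223 and 0.0241). With MSM pool 2 from tdLN left out, the difference in MSMs passed (9.60, adjusted p = 0.00902). The difference between SSMs and MSMs in tdLN passed without SSM pool 1 (4.07, adjusted p = 0.00376) or without MSM pool 1 (4.08, adjusted p = 0.0044).

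Many markers of the cells that make antibody were too low to be called. Of the 12 B cell markers, 6 had a mean above 100 normalized counts, and none was called between tdLN and ndLN in SSMs or in MSMs, with medians over the 12 of -0.446 and -0.894 on the log2 scale against -0.035 and 0.00928 over all genes. Of the 9 plasma cell markers, 4 were above that mean, and of these Prdm1 was called between the nodes, in SSMs. The median over the 9 was 0.983 in SSMs, against -0.035 over all genes, and -0.195 in MSMs. The list summed to between 775 and 1015 CPM in SSMs from ndLN and between 696 and 737 CPM in SSMs from tdLN, a sum made up mostly of Sdc1 and Xbp1.

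Fkbp11 and Mzb1, which serve antibody secretion, were too low to be called, with fitted node differences in SSMs of 6.46 (adjusted p = 0.0225) and 4.70 (adjusted p = 0.11) on the log2 scale. Fkbp11 had 0 and 2 counts in SSMs from ndLN, 50 and 124 in SSMs from tdLN, 2 and 0 in ndLN MSMs and 21 and 14 in tdLN MSMs. Mzb1 had 0 and 2 counts in SSMs from ndLN, 22 and 28 in SSMs from tdLN, 6 and 1 in ndLN MSMs and 10 and 0 in tdLN MSMs. Every tdLN library thus held more Fkbp11 than every ndLN library, a separation that 2.6% of the tested genes showed in CPM. Sdc1 and Pou2af1 of the same marker list went the other way in SSMs. Their means were 461 and 23.6 CPM in ndLN and 208 and 5 CPM in tdLN.

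Markers of other cells also differed between the nodes in SSMs. Macrophage markers summed to between 6893 and 10420 CPM in SSMs from ndLN and between 15480 and 21700 CPM in SSMs from tdLN, mostly Lyz2. Of these 10 markers, 5 were called higher in tdLN. T cell markers summed to between 1349 and 1504 CPM in ndLN and 494 and 560 CPM in tdLN, with Cd4 and Zap70 of 8 called lower. Mast cell and basophil markers summed to between 1267 and 1677 CPM in ndLN and 176 and 358 CPM in tdLN, with Cpa3 and Kit of 7 called lower and Mcpt8 higher. The part of any of these cells in the Ighg1 difference was not tested.

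Ighg2c, the heavy chain of IgG2c, was high in 1 library. It was 621 CPM in SSM pool 2 from ndLN and 35.3 CPM in MSM pool 2 from ndLN, which carries the same pool number. In pool 1 from ndLN it was 0.333 CPM in SSMs and 2.04 CPM in MSMs. In tdLN it was 0.867 and 0.0231 CPM in SSMs and 0.721 CPM and 0 counts in MSMs, where 0 counts allow up to 0.0623 CPM in MSM pool 2. The groups overlapped, and the fitted fall from ndLN to tdLN in SSMs, -8.51 on the log2 scale (SE 2.3), did not pass (adjusted p = 0.079). Without SSM pool 2 from ndLN the difference was -1.26 (adjusted p = 0.911), while without SSM pool 1 it was -9.27 and passed (adjusted p = 0.0092), as it did without either MSM pool from ndLN (adjusted p = 0.00621 and 0.00625). Without MSM pool 1 from ndLN, Ighg2c was also called higher in SSMs than in ndLN MSMs.

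The other switched classes were scarce. Ighg2b lay between 0.254 and 5.97 CPM, highest in MSM pool 1 and SSM pool 1 from tdLN (3.12 CPM). Ighg3 lay between 0 counts in MSM pool 2 and 1.12 CPM in SSM pool 1 from ndLN. Igha, the IgA heavy chain of mucosal tissues, had 99 counts in all, was at 0 counts in MSM pool 1 from ndLN and both MSM pools from tdLN, and reached 0.86 CPM in MSM pool 2 from ndLN. These 3 genes and Iglc1 had means under 100 normalized counts and so could not be called. Ighe, the IgE heavy chain, did not exceed 0.186 CPM in any library and was at or under the floor in 5 of 8.

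Within the heavy chain counts of each library, 1 class led. Ighm made up 96.3% (95% Wilson interval 95.9% to 96.6%) in SSM pool 1 and 99.0% (98.9% to 99.0%) in MSM pool 1 from ndLN, and 84.7% (84.1% to 85.3%) in MSM pool 2 from ndLN. Ighg2c made up 74.1% (73.7% to 74.6%) in SSM pool 2 from ndLN and 10.3% (9.87% to 10.8%) in MSM pool 2. In tdLN, Ighg1 made up 75.7% (75.3% to 76.1%) and 86.6% (86.3% to 86.8%) of heavy chain counts in SSM pools 1 and 2, and 60.2% (59.6% to 60.7%) and 22% (21.4% to 22.6%) in MSM pools 1 and 2. Ighm led in the last of these, at 76.1% (75.5% to 76.7%). These intervals cover counting error only.

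Among IgG counts alone the lead was sharper. Ighg1 made up between 98.4% and 99.97% of IgG counts in the 4 tdLN libraries. In ndLN, Ighg2c made up 99.5% of them in SSM pool 2 and 91.9% in MSM pool 2, where IgG totals were 26819 and 1788 counts. The pool 1 libraries from ndLN held 151 and 189 IgG counts and were mixed, with Ighg1 at 39.1% and 16.4% and Ighg2c at 10.6% and 46.6% in SSMs and MSMs.

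**Figure D2:**
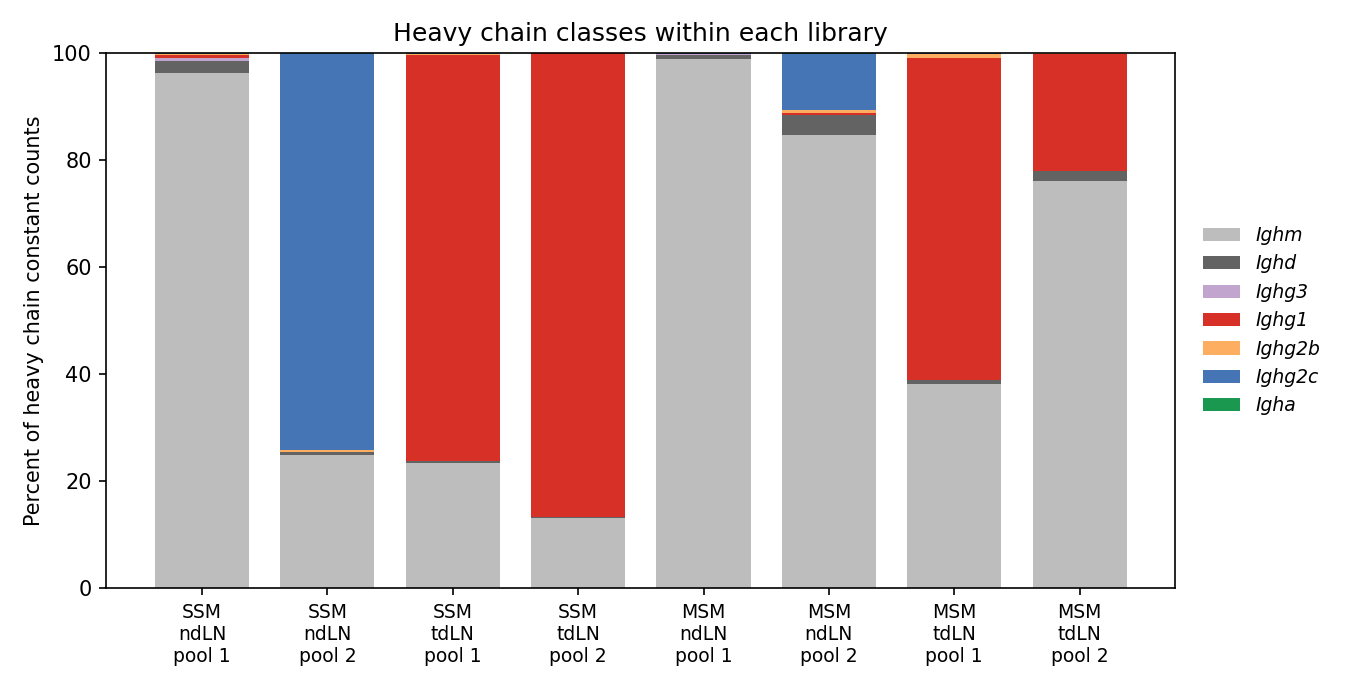
Share of each heavy chain gene in the heavy chain constant counts of each library, in percent, as stacked bars for 4 groups of 2 pools. Ighg1 fills 22% to 86.6% of the 4 tdLN bars and at most 0.526% of the ndLN bars, where Ighg2c fills 74.1% of SSM pool 2 and Ighm leads the other 3.

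The share of switched classes (Igha and the 4 Ighg genes) in heavy chain counts was 59.7% ± 39.2 in SSMs and 23.8% ± 26.5 in MSMs (SD, n = 4 libraries each). The difference of 35.9 percentage points did not pass (exact permutation test over 70 splits, two-sided p = 0.171, adjusted p = 0.5). That test mixes the nodes and does not pair libraries, so differences between nodes and pools widen the spread it uses. Within each node and pool number the share was higher in SSMs. It was 1.44% against 0.328% and 74.6% against 11.5% in ndLN, and 76.2% against 61.2% and 86.6% against 22.1% in tdLN. The share was 1.44% and 74.6% in the 2 SSM libraries from ndLN, so the spread between pools of 1 group was nearly as wide as the range over all libraries, 0.328% to 86.6%.

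Igkc, the constant part of the kappa light chain, was 15.7 and 389 CPM in SSMs from ndLN, 386 and 1169 CPM in SSMs from tdLN, 17.5 and 26.2 CPM in ndLN MSMs and 236 and 70.9 CPM in tdLN MSMs. It was lowest in the 3 ndLN libraries in which Ighm led the heavy chain counts, and higher in the 4 libraries with Ighg1 and in the library led by Ighg2c. The 4 tdLN libraries overlapped the ndLN libraries only because of SSM pool 2 from ndLN. Over both subsets the node difference was 2.80 on the log2 scale (SE 0.842), which did not pass (adjusted p = 0.124), and none of the comparisons called Igkc. The noncoding gene Gm30211 spans Igkc on the same strand with no exon over it and did not exceed 0.577 CPM.

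Iglc1, the lambda constant gene among the members, lay between 0.185 and 2.72 CPM. Iglc2 was the lambda gene that varied: 423 CPM in MSM pool 1 from ndLN against 0.541 to 4.65 CPM in the 7 other libraries. Iglc3 did not exceed 1.54 CPM and Iglc4 had 0 counts in every library. Lambda counts (Iglc1, Iglc2 and Iglc3) therefore made up 96.0% (95.8% to 96.3%, 95% Wilson) of light chain counts in MSM pool 1 from ndLN, and between 0.69% and 11.8% elsewhere. The share averaged 2.95% ± 3.62 in SSMs and 28.6% ± 45.2 in MSMs (SD, n = 4), a difference of -25.7 percentage points (exact permutation test, two-sided p = 0.2, adjusted p = 0.5) that fell to -3.2 without that library.

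Per kilobase of exon, heavy chain counts stood 3.80 and 3.37 times above light chain counts in SSM pool 1 and MSM pool 2 from ndLN, the 2 libraries with the smallest member totals. In the other 6 libraries the ratio was between 0.361 and 1.37. Ighm per kilobase was 4.02 and 3.12 times Igkc in those 2 libraries, 21.3 times Igkc in MSM pool 1 from ndLN, where the light chain was Iglc2, and between 0.0628 and 1.17 times Igkc in the rest.

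Jchain, which joins IgM and IgA into polymers, followed the libraries rather than the groups. It was 1.29 and 55.8 CPM in SSMs from ndLN, 39.7 and 70.8 CPM in SSMs from tdLN, 97 and 1.85 CPM in ndLN MSMs and 53 and 4.16 CPM in tdLN MSMs. The 5 libraries at 39.7 CPM or more were the 3 with the most Ighg1, the 1 with the most Ighg2c and the 1 with the most Ighm. The 3 others were at 4.16 CPM or less, and all groups but SSMs from tdLN held 1 library of each kind. The fitted node difference was 0.98 in SSMs (SE 1.68, adjusted p = 0.793) and -0.80 in MSMs (SE 1.66, adjusted p = 0.913), with the subset difference at -0.46 in ndLN (SE 2.07, adjusted p = 0.911) and 1.32 in tdLN (SE 1.81, adjusted p = 0.707).

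Relative to Igkc, Jchain was highest in MSM pool 1 from ndLN, at a log2 ratio of 2.47, and lay between -4.09 and -2.16 in the 7 others. SSMs averaged -3.43 ± 0.526 and MSMs -1.90 ± 3.04 (SD, n = 4), a difference of -1.53 (exact permutation test, two-sided p = 0.457, adjusted p = 0.714). The summed level of the 10 members, as log2 CPM, was 10.09 ± 1.54 in SSMs and 9.47 ± 0.924 in MSMs, a difference of 0.619 (exact permutation test, two-sided p = 0.571, adjusted p = 0.714). The difference in the summed level was smaller than the SD in either subset. The difference in the ratio was smaller than the SD in MSMs, which rested on MSM pool 1 from ndLN, but larger than the SD in SSMs.

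Pools 1 and 2 of a group differed far more in these genes than in most. Jchain differed between pools by 4.98 on the log2 scale in SSMs from ndLN, 5.38 in ndLN MSMs and 3.52 in MSMs from tdLN, where the median gene differed by 0.233, 0.221 and 0.206. Ighg2c differed by 9.54 and Igkc by 4.58 in SSMs from ndLN. Ighm by contrast differed by 0.1 in SSMs from ndLN and 0.104 in MSMs from tdLN, less than the median gene. The 2 lanes of each library agreed within sampling noise (chi-square per degree of freedom between 0.955 and 1.02), so these gaps lie between libraries.

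**Figure D3:**
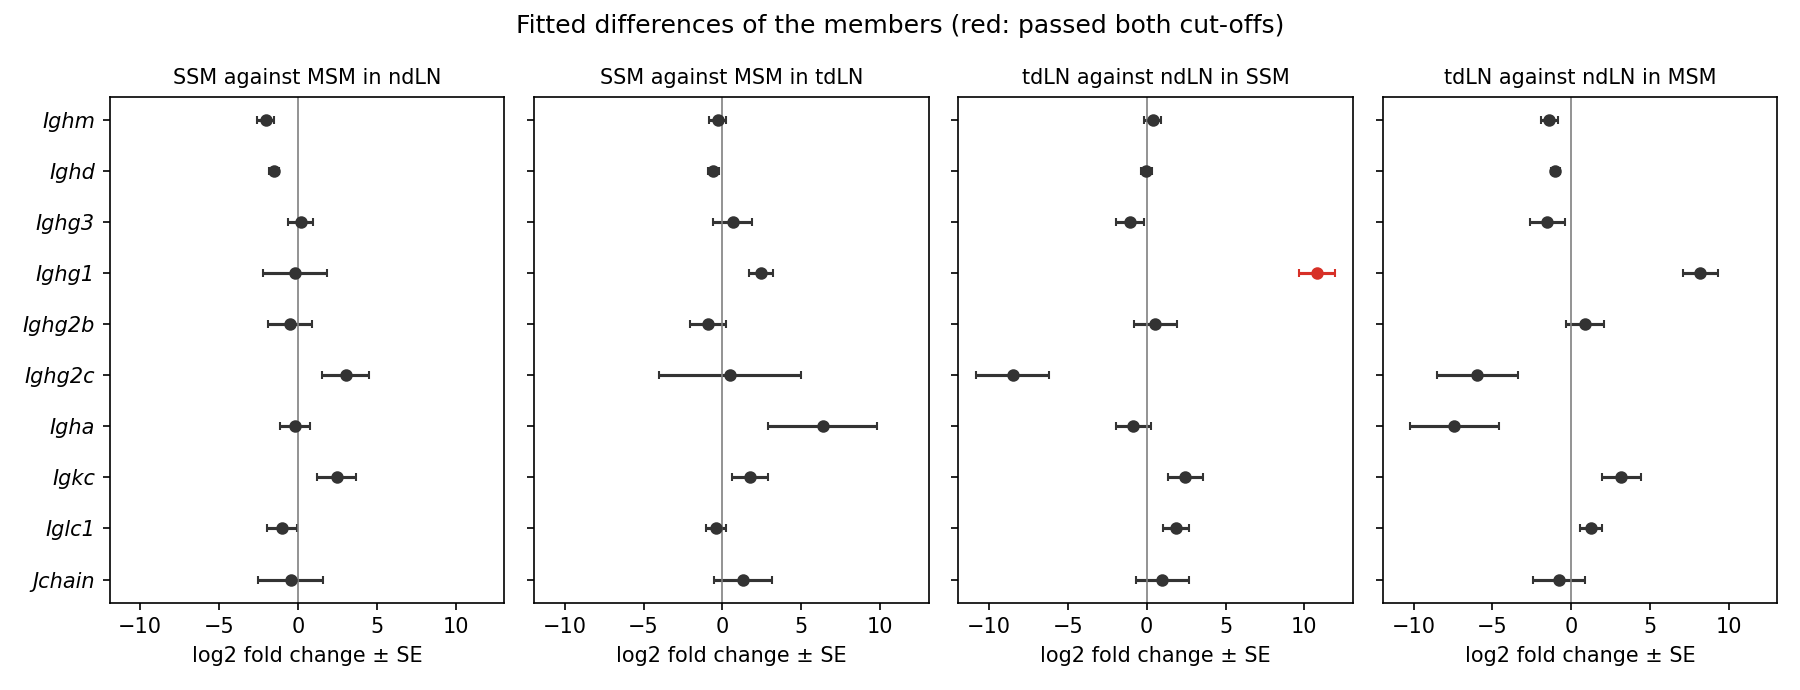
Fitted log2 fold changes of the 10 members with their SE (bars) in 4 comparisons, from the fit across 21085 genes with 2 libraries a group; a value above 0 is higher in SSMs (left 2 panels) or in tdLN (right 2 panels). Only Ighg1 in SSMs, at 10.82, passed both cut-offs (red), and the values of Igha and Ighg2c against groups near 0 counts depend on the prior count of the fit.

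Between SSMs and MSMs, none of the 10 members passed in either node, where 12.1% (ndLN) and 8.69% (tdLN) of all tested genes were called. In ndLN, 3 members were fitted higher and 7 lower in SSMs, with a median of -0.33 against 0.0911 over all genes. Of the 10, 2 had an unadjusted p under 0.05 (Ighd and Ighm), as had 7435 of the 21085 genes. In tdLN, 6 were fitted higher and 4 lower, with a median of 0.574 against 0.0243. Only Ighg1 had an unadjusted p under 0.05 there, as had 5865 of the 21085 genes. The DESeq2 test called 1 member in ndLN (Ighd, lower in SSMs) and 0 in tdLN, where it called 3673 and 2993 of the 21085 genes. Over both nodes, edgeR called 0 members and 12.5% of genes, and 3 members and 7995 of the 21085 genes had an unadjusted p under 0.05. DESeq2 called Ighd there, among 3757 genes. Between the nodes in MSMs, edgeR called 0 members. There 5 members and 2517 of the 21085 genes had an unadjusted p under 0.05, while DESeq2 called Ighg1 among 496 genes. The interaction called 0 members, and none had an unadjusted p under 0.05, where 2600 of the 21085 genes had. DESeq2 called 0 members and 677 genes there.

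Genes that serve antibody secretion were mixed in how they differed between groups. Of the 16 genes of that list, 11 had a mean above 100 normalized counts and could be called. Of the 16, 5 were higher (Cd93, Ell2, Pou2af1, Prdm1 and Sdc1) and 2 lower (Creld2 and Txndc5) in SSMs than in ndLN MSMs, where 12.1% of all genes were called, and 3 were higher (Cd93, Prdm1 and Sdc1) in tdLN, where 8.69% were. Between the nodes, 2 were higher in tdLN in SSMs (Prdm1 and Tnfrsf13b), where 3.04% of genes were called. In MSMs 0 of 16 were called between the nodes, where 0.0237% of genes were.

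Sdc1, a surface proteoglycan used to mark plasma cells, was 376 and 545 CPM in SSMs from ndLN, 189 and 227 CPM in SSMs from tdLN, and between 4.67 and 12.6 CPM in MSMs. It was higher in SSMs by 4.93 on the log2 scale in ndLN (adjusted p = 7.4e-05) and 4.74 in tdLN (adjusted p = 0.000172). Prdm1, a transcription factor of plasma cells and of other immune cells, was 52.6 and 52.5 CPM in SSMs from ndLN, 164 and 118 CPM in SSMs from tdLN, and between 19 and 35.6 CPM in MSMs. It rose in SSMs from tdLN by 1.63 (SE 0.191, adjusted p = 0.00331). SSM pools 1 and 2 from ndLN had nearly the same Prdm1, while Jchain was 1.29 CPM in the first and 55.8 CPM in the second.

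Mzb1, a chaperone for IgM assembly, did not exceed 0.647 CPM, Tnfrsf17, a survival receptor of plasma cells, 0.439 CPM, and Derl3, a protein of the endoplasmic reticulum, 4.35 CPM in any library. Xbp1, a regulator of the secretory apparatus in many cell types, was even, between 209 and 390 CPM, with no call. Pou2af1, a B cell coactivator, was 22 and 25.2 CPM in SSMs from ndLN and at or under 5.45 CPM elsewhere, and was called between subsets in ndLN (3.82 higher in SSMs, adjusted p = 0.00711). With 1 library left out, the call on Pou2af1 was lost in 6 of 8 fits and the 4 calls on Prdm1 in 15 of 32, among them those without either SSM pool from ndLN or tdLN for the rise in tdLN, whereas the 3 calls on Sdc1 held in all 24.

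**Figure D4:**
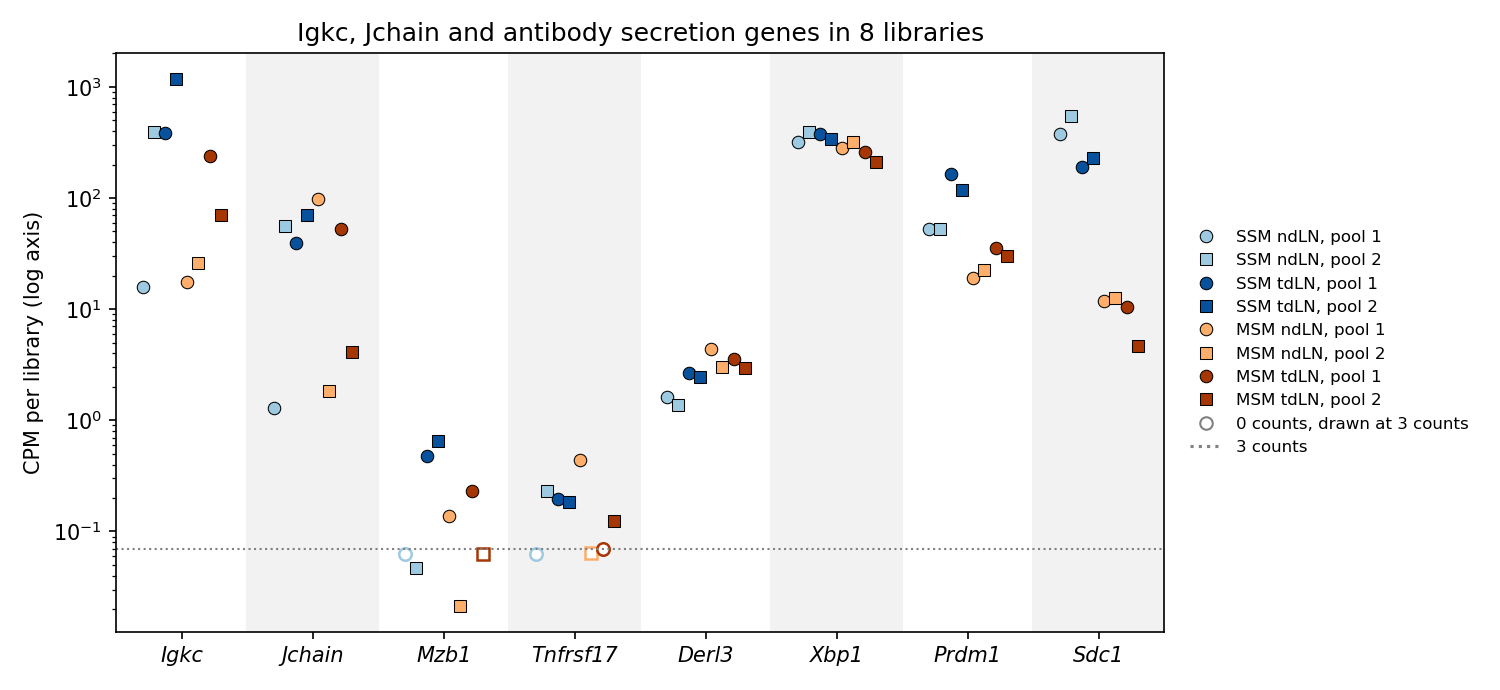
CPM of Igkc, Jchain and 6 antibody secretion genes (log axis) in the 8 libraries, with color for the group, circles for pool 1, squares for pool 2 and open symbols, drawn at 3 counts, for 0 counts. Igkc and Jchain spread over more than a factor of 74 between libraries, whereas Xbp1 stays within 209 to 390 CPM and Mzb1 and Tnfrsf17 stay below 0.647 CPM.

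Ung, a glycosylase that removes uracil from DNA and takes part in class switching, lay between 0.301 and 3.44 CPM. Of the 13 genes of the class switching and germinal centre list, 9 were above the mean needed for a call. Of the 13, 2 were higher (Fas and S1pr2) and 3 lower (Bcl6, Gcsam and Mki67) in SSMs than in ndLN MSMs (12.1% of all genes called), and 1 higher (S1pr2) and 2 lower (Gcsam and Mki67) in tdLN (8.69% called). Between the nodes 0 were called in SSMs or in MSMs, where 3.04% and 0.0237% of all genes were. Bcl6, a repressor of germinal centre B cells that macrophages also express, was 42.2 and 32.8 CPM in SSMs and 63 and 81.1 CPM in MSMs from ndLN (-1.24, adjusted p = 0.00689), a call that was lost with any of the 8 libraries left out.

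Among receptors that carry antibody, Fcgrt, which recycles IgG, was lower in SSMs (15.1 to 59.5 CPM) than in MSMs (215 to 279 CPM) and rose in SSMs from tdLN by 1.91 (adjusted p = 0.00246), a call that was lost without SSM pool 2 from ndLN or either SSM pool from tdLN (adjusted p = 0.0197, 0.043 and 0.0445). Pigr, Fcmr, Fcamr and Fcer2a did not exceed 5.55 CPM and were under the mean needed for a call. Fcer2a, the low-affinity IgE receptor, differed between SSMs and MSMs in ndLN by -4.42 (SE 0.943), lower in SSMs, with an adjusted p of 0.0097 by edgeR's test.

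The variable gene rows of the same libraries differed in how far 1 row led. In SSM pool 2 from ndLN, Ighv1-19 held 98.1% of Ighv and Igkv1-135 98.1% of Igkv counts. In MSM pool 1 from ndLN, Ighv7-3 held 97.9% of Ighv counts and Iglv2 98.4% of Iglv counts, which summed to 260 CPM. Iglv has only 3 rows, and Iglv1 held 96.8% and 95.7% of its counts in SSM pools 1 and 2 from tdLN. The Iglv sums there were 12.1 and 27.6 CPM. In tdLN the leading Ighv row held 27.7% and 47.2% in SSM pools 1 and 2, and 91.9% (Ighv1-19) and 73.2% (Ighv13-2) in MSM pools 1 and 2. The Ighv sums of these MSM pools were 99.1 and 15.8 CPM. Igkv10-96 held 90.1% of Igkv counts in MSM pool 1 from tdLN, 60.1% in MSM pool 2 and 46.7% in SSM pool 1.

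Over the 8 libraries, the 3 genes most like each of 5 members by Pearson's r of log2(CPM + 0.5), among 8405 genes with a mean of at least 10 CPM, were Iglc2 (0.917), Gpatch2l (0.877) and Aatf (0.843) for Ighm. They were Fbxo11 (0.974), Cryzl2 (0.97) and Zc3h10 (0.964) for Ighd, and Pggt1b (0.951), Chfr (0.934) and Ccdc43 (0.929) for Igkc. For Jchain they were Parp2 (0.945), Vps35l (0.937) and Dcun1d2 (0.896), and for Igha Gpr89 (0.954), Srsf4 (0.945) and Nbas (0.943). With 8 points and 8405 genes such values are a description, and the libraries share depth and sorting. Apart from Iglc2, which spans 0.541 to 423 CPM, these genes varied by less than a factor of 3. Among the members themselves, r was 0.714 for Ighg1 with Igkc, 0.603 for Igkc with Jchain and 0.351 for Ighg1 with Jchain.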

How the data were processed

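RNA of sorted SSMs and MSMs was amplified with the SMART-Seq v4 kit, and each of 8 libraries was sequenced on 2 lanes, which gives 16 samples. The authors deposited raw counts per gene, made from reads trimmed with Trimmomatic 0.36 and aligned to GRCm38/mm10 with STAR 2.5.3a after bcl2fastq 2.20.0.422 (processing notes), with no normalization. The strand setting and annotation release were not given in the sources used here. GENCODE M21 annotated 55240 of the 55421 gene rows and supplied symbols, coordinates and sequences, and 2 rows for added sequences (6 counts, 1.66e-06% of all) were left out. SMART-Seq reads carry no molecular identifiers, so intervals cover counting error only.

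The counts of both lanes of a library, alike within sampling noise, were added up, which leaves n = 2 libraries a group; libraries are pools of mice. Genes with at least 10 counts in total and detected in at least 2 samples were fitted with edgeR 4.0.16 (R 4.3.3; TMM, quasi-likelihood, group and pool, all 8 libraries). A gene was called at a Benjamini-Hochberg adjusted p under 0.01 and a mean over 100 normalized counts a lane. The SE of a fitted difference is the one implied by the test, its size divided by the square root of the F statistic. Pool was in the model, as the study's models have a pool term. The study's sample matrix counts 4 pools, which are the 2 pool numbers of the labels on 2 lanes each; the labels number the nodes, and that same-numbered libraries came from the same mice rests on the study's methods. Deviations of same-numbered libraries correlated between -0.189 and 0.139. Comparisons that share a group share its libraries. The fit was tested on simulated data with a low, even spread between libraries. That check does not cover genes as uneven between pools as many of the members. Shares, ratios and sums were compared by exact permutation over 70 splits of 4 against 4 libraries (smallest p 0.0286, Python 3.11.15, scipy 1.17.1). These splits mix the nodes and do not pair libraries.

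The members and lists were chosen with earlier results of these data known. Named were the members, Ighe and the other lambda genes, 7 genes of the secretion list, 3 of the switching list (values of 1 are not reported here), 5 receptors, called members of those lists, and the 3 genes most like 5 members. Alternatives were the fit without pool, DESeq2 1.42.0, other normalizations, filters and cut-offs, each lane, the legacy fit, the compared groups alone and each library left out.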

Additional observations from a re-analysis of the deposited data

How the results depend on the processing

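Ighg1 was called between the nodes in SSMs and over both subsets under every alternative that kept the 8 libraries. With the compared groups alone, 0 members were called in SSMs (Ighg1 10.51, edgeR adjusted p = 0.0259, and 0 of all genes called with 4789 at an unadjusted p under 0.05). In MSMs the count rose from 0 to 1 (Ighg1) with DESeq2 and with an adjusted p under 0.05. Between subsets in ndLN it rose from 0 to 1 without the replicate block (pool), with DESeq2, with filterByExpr and with lane 4 only (Ighd, lower in SSMs), to 1 with the compared groups alone (Ighg2c, higher in SSMs), and to 2 (Ighd and Ighm) with an adjusted p under 0.05. In that order these settings called 2809, 3673, 2792 (of 16675), 2656, 952 and 3885 of the 21085 genes, against 2546 in the main fit. Over both nodes it rose to 1 (Ighd) with DESeq2 and with an adjusted p under 0.05, where 3757 and 4083 genes were called, against 2635 in the main fit. The fit without the replicate block changed no other call on the members. The cause of these changes was not tested.

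With 1 library left out, the count of called members ran from 0 to 1 in every comparison but the interaction and the subsets over both nodes, which stayed at 0. Without SSM pool 1, MSM pool 1 or MSM pool 2 from ndLN, the single member called between the nodes in SSMs was Ighg2c in place of Ighg1. The Ighm difference between nodes in MSMs ran from -2.32 to 0.027 and was positive without MSM pool 1 from ndLN. The difference in the log2 ratio of Ighd to Ighm between subsets ran from -0.477 to 0.4005 and was 0.0396 with lane 3 only. The other 4 tested values kept their direction under every alternative run, including permutation within pools (the replicate block, 36 splits, p between 0.167 and 0.611), which cannot go below 0.0556. With 3 against 4 libraries the smallest p is 0.0571, so those tests say nothing about stability. Without TMM factors the median of all genes moved from 0.0911 to 0.359 between subsets in ndLN and from -0.035 to -0.234 between the nodes in SSMs, and the genes called from 1268 higher and 1278 lower to 1745 and 822, and from 419 and 221 to 279 and 383, with the same calls on the members. Counts of called genes over all 21085 changed by more than 1.5 times under some settings, in SSMs between the nodes from 640 to 1932 with DESeq2 and 1832 with an adjusted p under 0.05, and in MSMs from 5 to 496 and 93. Of 112 fits with 1 library left out, 37 lost a call on Bcl6 (13 of 16), Fcgrt (3 of 32), Pou2af1 (6 of 8) or Prdm1 (15 of 32) and 0 of 24 on Sdc1, with no change of direction. Other alternatives lost 6 of 164. Most fits with 1 library left out also called fewer of all genes than the main fit. Depth limits Igha, Ighe, Ighg3, Mzb1 and Tnfrsf17, whose counts reached the floor of 3 in some libraries.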
